A study of Danio rerio with 8 samples.

Results

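Transcripts of the Nr1d nuclear receptors and the PAR bZIP transcription factors were measured by RNA sequencing in injured zebrafish ventricles of cox7a1-/- mutants and their wildtype siblings. The 10 genes were nr1d1, nr1d2a, nr1d2b, nr1d4a, nr1d4b, dbpa, dbpb, tefa, tefb and hlfa, chosen by family membership from the 32520 gene rows of the count table. The families were picked with earlier results of these data known. Each symbol matched 1 row, 9 of them directly and nr1d2b through the row named NR1D2. The groups were 4 pools from mutants and 4 pools from siblings, and each pool combined the ventricles of 5 adult fish. In both groups the ventricle had been cryoinjured, meaning that part of the muscle was killed by freezing, and was collected 7 days later. The gene cox7a1 encodes a subunit of cytochrome c oxidase, the last complex of the respiratory chain. The molecular lesion of the allele, the age of the adult fish and the time of day of collection were not stated in the sources used here. Per the column names, all wildtype libraries were numbered before all cox7a1-/- libraries. If the groups differed in time of day of collection or in order of handling, that could not be told apart from a difference of genotype.

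Nr1d receptors, also called Rev-erb, bind heme and repress transcription by recruiting corepressor complexes that hold Hdac3 to DNA elements that the Ror receptors also bind, and the clock activator gene Bmal1 is among their best known targets. The PAR bZIP factors Dbp, Tef and Hlf activate genes through D-box elements, and Nfil3 represses through the same elements. In mammals the Bmal1 and Clock proteins drive transcription of Nr1d and Dbp genes, so that their transcripts cycle strongly over the day in many tissues, the heart among them. In zebrafish, where peripheral tissues respond to light directly, D-box elements also carry light to clock genes such as per2.

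Total counts ran from 41556101 to 69057989 per pool. The transcript of the targeted gene, cox7a1 on chromosome 15, averaged 113.7 CPM ± 57.7 in cox7a1-/- pools and 246.1 CPM ± 41.6 in wildtype pools (SD, n = 4 each). CPM are read counts scaled to a common library size. Its level was 193.9 CPM in cox7a1-/- replicate 4, against 59.52 to 113.1 CPM in the other cox7a1-/- pools, and the lowest wildtype pool had 209.7 CPM. The genotypes did not overlap, at a log2 fold change of -1.11 ± 0.295 (SE; edgeR adjusted p = 0.0776). None of the 10 clock output genes lies on chromosome 15. Cardiac muscle transcripts were abundant in all pools: the 7 matched rows of the ventricle marker list summed to between 25680 and 39050 CPM in cox7a1-/- pools and between 26130 and 31460 CPM in wildtype pools. A list of 10 rows for blood, endothelium, epicardium, fibroblasts, leukocytes, skeletal muscle and neurons summed to 2222 to 2835 CPM in cox7a1-/- pools and 2131 to 2457 CPM in wildtype pools, and the neuronal marker ELAVL3 had 0.0223 CPM in cox7a1-/- replicate 1 and no read in the other 7 pools. For leukocytes only ptprc had a matched row. The skeletal muscle marker myhz2 had 37.82 CPM in cox7a1-/- replicate 1, against 0.3518 to 1.098 CPM in the other cox7a1-/- pools and 1.861 to 5.309 CPM in wildtype pools. By edgeR's adjusted test 0 of the 6 tested ventricle rows and 0 of the 8 tested rows for other cell types differed between the genotypes. At an unadjusted p under 0.05 these counts were 1 and 0, and DESeq2 and limma-voom called 0 in either list. In pooled tissue, fewer cells of a type and less RNA per cell cannot be told apart.

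The ventricle expressed 8 of the 10 genes at moderate levels and the nr1d4 pair at the edge of detection. Levels of different genes were compared as RPKM, which divides CPM by the exonic length in kilobases. In cox7a1-/- pools nr1d2a stood first with 57.93 RPKM ± 5.2, followed by nr1d2b at 50.92 ± 6.3 and tefa at 40.98 ± 1.87 (SD, n = 4). Next came nr1d1 at 31.53 RPKM ± 8.57, tefb at 24.57 ± 2.1 and hlfa at 20.32 ± 2.75, and then dbpb at 9.878 ± 2.91 and dbpa at 7.978 ± 0.843. The ranges of neighbours in this order overlapped except between hlfa and dbpb and between dbpa and nr1d4b.

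In wildtype pools nr1d2a averaged 54.73 RPKM ± 38.8, nr1d2b 48.66 ± 4.01 and tefa 40 ± 2.29 (SD, n = 4). There nr1d1, at 14.7 RPKM ± 3.92, ranked after tefb at 19.76 ± 2.22 and hlfa at 18.58 ± 5.49, and dbpb at 8.723 ± 0.978 and dbpa at 4.827 ± 0.272 came next. Neighbouring ranges were separate from nr1d2b to tefa, from tefa to tefb, from dbpb to dbpa and from dbpa to nr1d4a. The highest of the 8 expressed genes in wildtype pools was also the least even, since nr1d2a ranged from 9.245 to 97.23 RPKM among them.

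**Figure D1:**
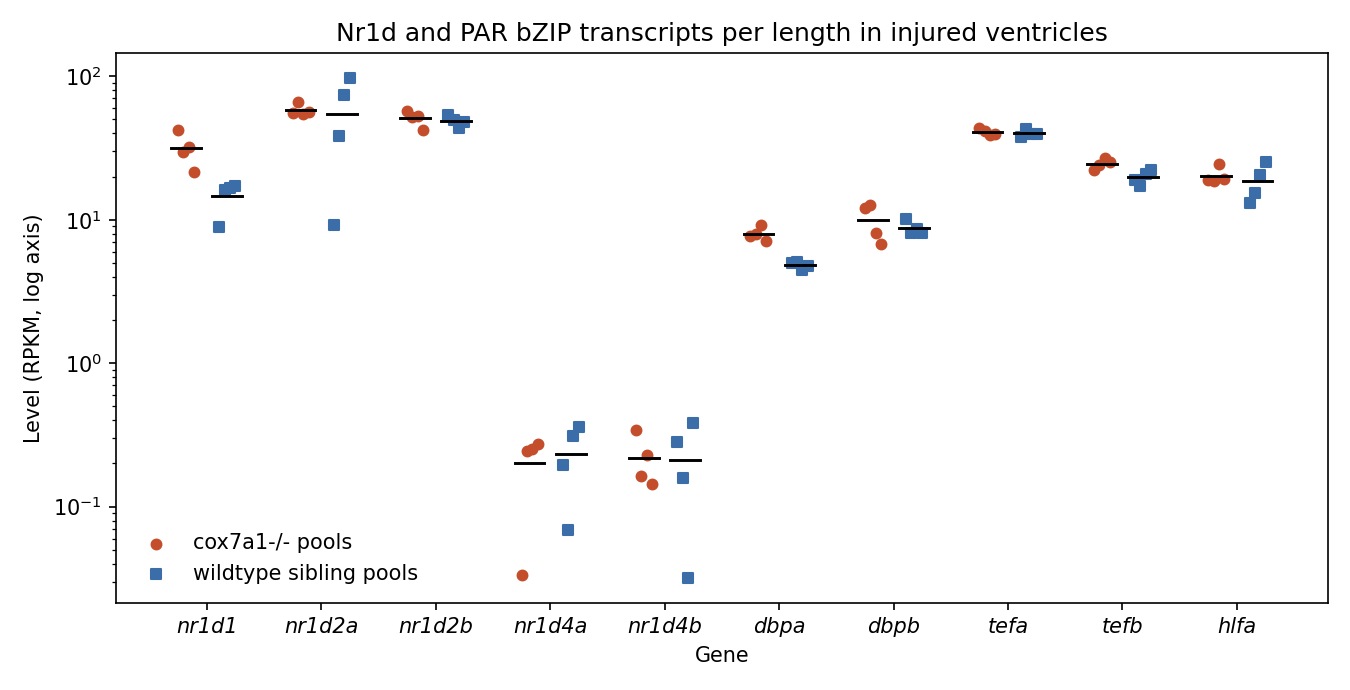
Level of each gene in RPKM on a log axis, with 1 point per pool, cox7a1-/- pools as circles and wildtype sibling pools as squares, and a line at the mean of 4 pools. The points of nr1d1 and dbpa do not overlap between the genotypes, the nr1d2a points are spread from 9.245 to 97.23 RPKM in wildtype pools, and the nr1d4 pair lies below 1 RPKM.

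The genotypes were then compared for each gene with edgeR's quasi-likelihood test, with p-values adjusted over all 17949 tested genes by the Benjamini-Hochberg method and a threshold of 0.05. All 10 genes passed the filter on low counts. Of them, nr1d1 and dbpa rose in cox7a1-/- ventricles, 2 of 10 genes, while 1.14% of all tested genes were called higher. None of the 10 was called lower by edgeR, against 0.88% of all tested genes, so that 2 of 10 were called in either direction, against 2.02%. At an unadjusted p under 0.05 there were 3 of the 10 (nr1d1, dbpa and tefb, all higher), against 18% of all tested genes. DESeq2 and limma-voom each called 2 of the 10 genes higher and 0 lower. Over all genes DESeq2 called 619 higher and 488 lower of 17936, and limma-voom 224 higher and 146 lower of 17949. Positive log2 fold changes were found for 9 of the 10 genes with a median of 0.106, beside 50.4% positive and a median of 0.00295 over all tested genes. Of these 9, nr1d2a, nr1d2b, nr1d4b, tefa and hlfa turned negative in some fits that left out a pool. The same pair, nr1d1 and dbpa, had every cox7a1-/- pool above every wildtype pool, a pattern seen in 6.27% of all tested genes. The opposite pattern was found for none of the 10 and for 5.48% of all tested genes. Since the 10 genes were chosen with earlier results known, these shares are a description and not a test.

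**Figure D2:**
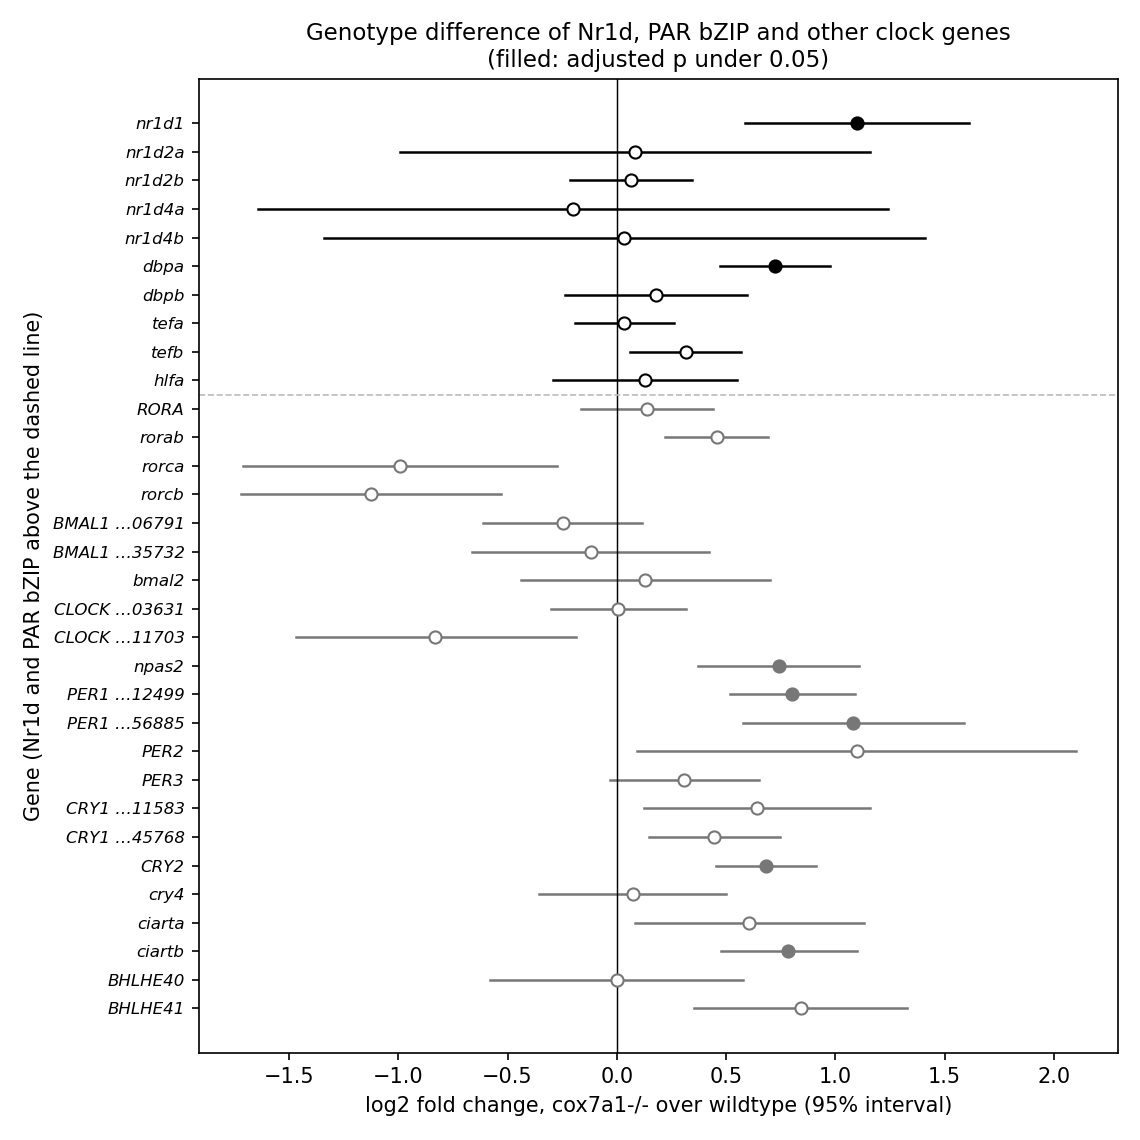
Log2 fold change of each gene, cox7a1-/- over wildtype, with its 95% interval from edgeR's fit, for the 10 genes above the dashed line and the Ror receptors, clock activators and clock repressors below it. Rows that share a symbol carry the last digits of their gene ID. Filled points passed the adjusted threshold of 0.05: nr1d1 and dbpa above the line, and npas2, the PER1 rows, CRY2 and ciartb below it.

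Among the Nr1d receptors, nr1d1 was about doubled while its paralogs did not pass the test. The gene nr1d1 (ENSDARG00000033160; GRCz11, chromosome 3, 23488652 to 23496223, plus strand, 2926 exonic bases) encodes Rev-erb alpha. Its level was 124, 87.21, 94.63 and 63.13 CPM in cox7a1-/- replicates 1 to 4, against 25.85, 47.34, 48.92 and 49.88 CPM in wildtype replicates 1 to 4. The lowest cox7a1-/- pool, replicate 4, still lay above the highest wildtype pool, and wildtype replicate 1 stood well below the other three. The means were 92.24 CPM ± 25.1 in cox7a1-/- pools and 43 CPM ± 11.5 in wildtype pools (SD, n = 4 each). This was a 2.15-fold difference, a log2 fold change of 1.101 ± 0.234 (SE; 95% interval 0.588 to 1.61), with an edgeR adjusted p of 0.0403.

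The call of nr1d1 was close to the threshold. It was lost when any of cox7a1-/- replicates 1, 2 and 3 or wildtype replicates 1, 2 and 3 was left out, with edgeR adjusted p-values from 0.0624 to 0.111, while the log2 fold change stayed between 0.91 and 1.25 over all 8 such fits. Without cox7a1-/- replicate 4, the mutant pool with the most cox7a1 and the least nr1d1, the log2 fold change was 1.25 ± 0.219 (SE; adjusted p = 0.0225). That pool also had the highest total counts, 69057989, and the lowest levels of long genes relative to short ones. The median log2 difference of long and short genes was -0.245 there, against 0.0201 to 0.227 in the other cox7a1-/- pools. With the length trend removed from all pools, the log2 fold change of nr1d1 was 1.07 (edgeR adjusted p = 0.0371). Wildtype replicates 1 and 4 had 209.7 and 210.6 CPM of cox7a1, with 25.85 and 49.88 CPM of nr1d1. A relation between the levels of cox7a1 and nr1d1 was not tested. Without wildtype replicate 1, the pool with the lowest nr1d1, the log2 fold change was 0.91 ± 0.197 (SE; adjusted p = 0.0624).

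The nr1d2 pair encodes the zebrafish counterparts of Rev-erb beta, and the main feature of nr1d2a was its spread among wildtype pools. The gene nr1d2a (ENSDARG00000003820; chromosome 16, 50089417 to 50111057, plus strand, 4079 exonic bases) had 225.3, 268, 223.7 and 228.2 CPM in cox7a1-/- replicates 1 to 4, against 37.71, 157, 301.7 and 396.6 CPM in wildtype replicates 1 to 4. The cox7a1-/- pools thus lay inside the wildtype range, and the highest wildtype pool held 10.5 times the level of the lowest, against 1.2 times among cox7a1-/- pools. On the log2 scale the SD was 0.124 in cox7a1-/- pools and 1.52 in wildtype pools. Of 845 tested genes with an average log2 CPM within 1 of nr1d2a 0.71% had a larger wildtype SD, and their median SD was 0.155. Whether the spread differed between the genotypes was not tested.

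The genotype difference of nr1d2a was not resolved at this spread. It had a fitted log2 fold change of 0.08 ± 0.49 (SE; 95% interval -0.991 to 1.16; edgeR adjusted p = 0.954). Leaving out wildtype replicate 1 turned the sign, with -0.28 ± 0.25 (adjusted p = 0.646), as did leaving out wildtype replicate 2, with -0.05. By limma-voom the log2 fold change was 0.52 (adjusted p = 0.666), and it was 0.50 without wildtype replicate 4 (edgeR adjusted p = 0.622).

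The paralog nr1d2b (ENSDARG00000009594; chromosome 19, 17400263 to 17407115, plus strand, 3986 exonic bases) was even across all pools. It had 227.5, 205.8, 210.6 and 167.9 CPM in cox7a1-/- replicates 1 to 4, against 213.1, 197.4, 174.5 and 190.8 CPM in wildtype replicates 1 to 4. The groups overlapped, and the log2 fold change of 0.07 ± 0.127 (SE; edgeR adjusted p = 0.835) had a 95% interval of -0.212 to 0.342. As a result, the share of nr1d2a in the summed RPKM of the pair was 49.2% to 57% in cox7a1-/- pools and 14.7% to 67% in wildtype pools.

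The nr1d4 genes, a further branch of the family kept in fishes, were barely detected. The gene nr1d4a (ENSDARG00000031161; chromosome 23, 35795759 to 35821521, minus strand) had 3, 24, 23 and 34 reads in cox7a1-/- replicates 1 to 4 and 23, 7, 31 and 36 reads in wildtype replicates 1 to 4. For nr1d4b (ENSDARG00000059370; chromosome 11, 1944729 to 1967438, minus strand) the reads numbered 38, 20, 26 and 22 in cox7a1-/- pools and 41, 20, 4 and 48 in wildtype pools. Both genes overlapped between the genotypes, with 95% intervals of the log2 fold change from -1.64 to 1.24 for nr1d4a and from -1.34 to 1.41 for nr1d4b. These intervals hold differences of 2-fold in either direction, so that none of that size could be told from 0. The spread among pools, as an SD of log2 CPM, was 1.19 for nr1d4a in cox7a1-/- pools and 1.35 for nr1d4b in wildtype pools, against medians of 0.627 and 0.689 for genes of like level. In the other genotype it was nearer the median or below it. There nr1d4a had 0.946 in wildtype pools (median 0.733) and nr1d4b 0.524 in cox7a1-/- pools (median 0.588).

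Summed over the 5 receptors, Nr1d transcripts came to 155.1, 147.5, 140.5 and 120.1 RPKM in cox7a1-/- replicates 1 to 4, against 72.03, 104.4, 134.8 and 162.9 RPKM in wildtype replicates 1 to 4. The sums overlapped, since wildtype replicate 4, the pool with the most nr1d2a, was the highest of all.

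Among the D-box activators dbpa rose, and the remaining PAR bZIP genes did not pass the test. The gene dbpa (ENSDARG00000063014; chromosome 19, 10177115 to 10196370, minus strand, 2992 exonic bases) encodes a D-box binding protein. It had 23.15, 23.75, 27.31 and 21.28 CPM in cox7a1-/- replicates 1 to 4, against 14.89, 15.26, 13.41 and 14.22 CPM in wildtype replicates 1 to 4. The groups were well apart and each was tight, with means of 23.87 CPM ± 2.52 in cox7a1-/- pools and 14.44 CPM ± 0.815 in wildtype pools (SD, n = 4 each). The difference was 1.65-fold, a log2 fold change of 0.72 ± 0.115 (SE; 95% interval 0.473 to 0.976), with an edgeR adjusted p of 0.0142. The call was lost without cox7a1-/- replicate 3 (adjusted p = 0.055) and without wildtype replicate 3 (adjusted p = 0.0571).

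Its paralog dbpb (ENSDARG00000057652; chromosome 16, 13599693 to 13613475, minus strand, 5177 exonic bases) split the cox7a1-/- pools. It had 62.73, 65.16, 41.69 and 34.99 CPM in cox7a1-/- replicates 1 to 4, against 52.46, 41.96, 44.66 and 41.54 CPM in wildtype replicates 1 to 4. Replicates 1 and 2 of the mutant lay above every wildtype pool and replicate 4 below every one. With the groups overlapping, the log2 fold change was 0.18 ± 0.191 (SE; 95% interval -0.239 to 0.597; edgeR adjusted p = 0.679). The share of dbpa in the RPKM of the pair was 39%, 38.7%, 53.1% and 51.3% in cox7a1-/- replicates 1 to 4, against 32.9% to 38.6% in wildtype pools, so that the closest pools of the genotypes nearly touched. Whether dbpa and dbpb differed in their response was not tested.

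The tef pair encodes thyrotroph embryonic factor, the most abundant of the D-box activators here. The gene tefa (ENSDARG00000039117; chromosome 12, 19144833 to 19153177, minus strand, 2932 exonic bases) had 127.1, 121.8, 114.8 and 116.9 CPM in cox7a1-/- replicates 1 to 4, against 110.5, 126.5, 116.6 and 115.4 CPM in wildtype replicates 1 to 4. Its highest pool held 1.11 times the lowest among cox7a1-/- pools and 1.14 times among wildtype pools, and its log2 fold change of 0.03 ± 0.103 (SE; edgeR adjusted p = 0.898) had a 95% interval of -0.19 to 0.26.

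For tefb (ENSDARG00000098103; chromosome 3, 5052822 to 5067585, minus strand, 2014 exonic bases) the cox7a1-/- replicates 1 to 4 held 44.55, 48.23, 54.64 and 50.55 CPM, against 38.22, 34.47, 41.69 and 44.83 CPM in wildtype replicates 1 to 4. Only wildtype replicate 4 reached the range of the cox7a1-/- pools, just above their lowest. The log2 fold change was 0.31 ± 0.116 (SE; 95% interval 0.0604 to 0.569), with an unadjusted p of 0.0196 and an edgeR adjusted p of 0.187, which did not pass. The share of tefa in the RPKM of the pair was 59.1% to 66.2% in cox7a1-/- pools and 63.9% to 71.6% in wildtype pools.

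The gene hlfa (ENSDARG00000074752; chromosome 3, 11585298 to 11624694, minus strand, 2945 exonic bases) encodes hepatic leukemia factor. It had 56.1, 54.62, 71.9 and 56.77 CPM in cox7a1-/- replicates 1 to 4, against 38.42, 45.25, 60.67 and 74.55 CPM in wildtype replicates 1 to 4. As for nr1d2a, wildtype replicate 1 was the lowest of the 8 pools and wildtype replicate 4 the highest. The log2 fold change was 0.13 ± 0.192 (SE; 95% interval -0.29 to 0.549; edgeR adjusted p = 0.78). Summed over the 5 PAR bZIP genes, levels came to 104.4, 104.6, 107.9 and 98.12 RPKM in cox7a1-/- replicates 1 to 4, against 84.84, 88.84, 94.19 and 99.7 RPKM in wildtype replicates 1 to 4, and the highest wildtype pool overlapped the lowest cox7a1-/- pool.

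**Figure D3:**
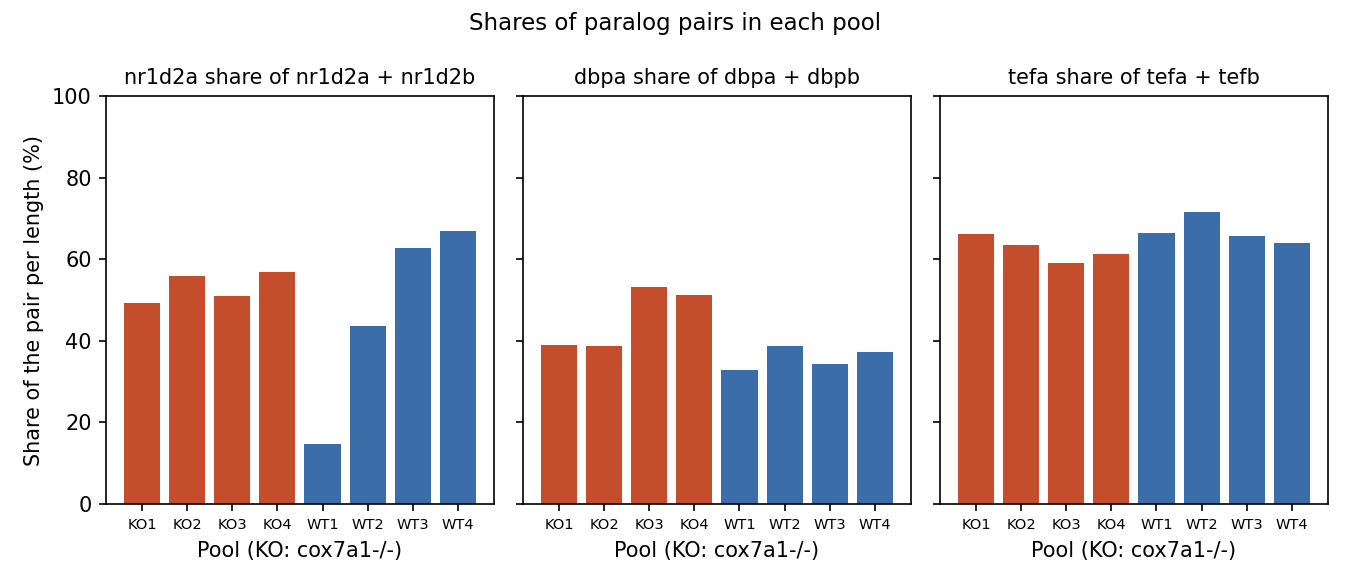
Share of the a paralog in the summed RPKM of each pair, in percent, with 1 bar per pool, cox7a1-/- pools (KO1 to KO4) left of wildtype pools (WT1 to WT4). The nr1d2a share runs from 14.7% to 67% among wildtype pools, and the dbpa share stands at 53.1% and 51.3% in cox7a1-/- replicates 3 and 4.

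The genes around the Nr1d and D-box arms were counted in lists that together held 56 tested rows outside the 10 genes, with PER2 and both CRY1 rows counted in the repressor and the light-inducible list. Of these, 5 rose and 0 fell by edgeR's adjusted test, with 15 higher and 5 lower at an unadjusted p under 0.05. DESeq2 called 9 higher and 2 lower, and limma-voom 5 higher and 0 lower. Over all tested genes edgeR called 1.14% higher and 0.88% lower, and 18% had an unadjusted p under 0.05. Of 17936 genes DESeq2 called 619 higher and 488 lower, and limma-voom called 224 and 146 of 17949. These lists too were chosen with earlier results known, so the shares are a description. The edgeR calls were 4 of 12 clock repressors and 1 of 6 clock activators. Adjacent to the Nr1d receptors, the Ror receptors, activators that bind the same elements, had no call by edgeR or limma-voom among 4 tested rows, and 3 had an unadjusted p under 0.05.

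Fitted values in the Ror list differed in sign. The level of rorab was 53.19 CPM ± 4.2 in cox7a1-/- pools and 38.75 CPM ± 3.23 in wildtype pools (SD, n = 4 each), with a log2 fold change of 0.46 ± 0.108 (SE; edgeR adjusted p = 0.0547). In contrast, rorcb averaged 6.439 CPM ± 1.69 in cox7a1-/- pools and 14.08 CPM ± 5.55 in wildtype pools, a log2 fold change of -1.13 ± 0.272 (adjusted p = 0.0589). For rorca the log2 fold change was -0.99 ± 0.327 (adjusted p = 0.146). Neither rorab nor rorcb overlapped between the genotypes, and DESeq2 called all 3, with adjusted p-values of 0.00696, 0.00253 and 0.0351.

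The corepressors that Nr1d receptors recruit did not pass the test. None of 7 tested rows was called by edgeR, DESeq2 or limma-voom, and 0 had an unadjusted p under 0.05. The log2 fold change was -0.13 ± 0.106 (SE) for GPS2 and -0.20 ± 0.166 for NCOR1, with edgeR adjusted p-values of 0.56 and 0.579. For enzymes of heme synthesis and breakdown, which set the supply of the Nr1d ligand, 0 of 12 rows passed by edgeR, with 3 higher and 2 lower at an unadjusted p under 0.05. DESeq2 called 1 of these rows, ALAS1, and limma-voom 0. ALAS1, the first enzyme of heme synthesis outside red cells, averaged 1050 CPM ± 311 in cox7a1-/- pools and 683.4 CPM ± 82.6 in wildtype pools without overlap, a log2 fold change of 0.62 ± 0.191 (edgeR adjusted p = 0.122). The log2 fold change of uros, a later enzyme of the pathway, was -0.39 ± 0.125 (adjusted p = 0.137), and that of PPOX, the enzyme before the last, 0.46 ± 0.165 (adjusted p = 0.177).

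The other D-box factors, Nfil3 repressors and the row named HLF, had no call among 4 tested rows by edgeR, DESeq2 or limma-voom, and none had an unadjusted p under 0.05. The most abundant, nfil3-6, had 215.7, 243.7, 310.4 and 211.1 CPM in cox7a1-/- replicates 1 to 4, against 61.16, 105.8, 165.6 and 321 CPM in wildtype replicates 1 to 4. Its wildtype pools were ordered like those of nr1d2a and hlfa, with replicate 1 lowest and replicate 4 highest. The log2 fold changes were 0.59 ± 0.39 (SE) for nfil3-6, -0.29 ± 0.159 for NFIL3 and -0.50 ± 0.298 for nfil3-5, with edgeR adjusted p-values of 0.469, 0.358 and 0.414.

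Upstream of both families, the clock activators gave 1 call in 6 rows. It was npas2, a partner of Bmal1 related to Clock, which rose to 7.896 CPM ± 0.0639 in cox7a1-/- pools, against 4.722 CPM ± 1.02 in wildtype pools (SD, n = 4 each). Its log2 fold change was 0.74 ± 0.168 (SE; edgeR adjusted p = 0.0487), and the call was lost with any of the 8 pools left out (adjusted p up to 0.129). The row BMAL1 (ENSDARG00000006791), which encodes the activator best known as an Nr1d target in mouse, had -0.25 ± 0.166 (adjusted p = 0.474), and CLOCK (ENSDARG00000011703) had -0.83 ± 0.294 (adjusted p = 0.17).

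Among the clock repressors, which share the E-box control of nr1d1 and dbpa in mammals, 4 of 12 rows rose and none fell. The log2 fold change was positive for 11 of 12, with a median of 0.663. Over all tested genes 1.14% were called higher, 50.4% were positive and the median was 0.00295. The calls among the repressors were CRY2 with a log2 fold change of 0.68 ± 0.104 (SE; edgeR adjusted p = 0.0126), PER1 (ENSDARG00000012499) with 0.80 ± 0.131 (0.0159) and ciartb, which encodes a Bmal1 repressor, with 0.78 ± 0.142 (0.0229). The fourth was the other PER1 row (ENSDARG00000056885), at 1.08 ± 0.23 (0.0402) and named here because it was called. These calls were lost in 1, 3, 6 and 6 of the 8 fits that left out a pool, in the order CRY2, PER1 (ENSDARG00000012499), ciartb and PER1 (ENSDARG00000056885).

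The list of zebrafish genes that light induces through D-boxes had no call by edgeR or limma-voom among 7 rows, and 4 were higher at an unadjusted p under 0.05. It named a single cry1 gene, cry1aa, but both rows with the symbol CRY1 matched. Both are counted here, and the symbols do not tell which of them is cry1aa. DESeq2 called 1 of the 7 rows, CRY1 (ENSDARG00000045768), which had a log2 fold change of 0.45 ± 0.137 (SE; edgeR adjusted p = 0.12). For the other CRY1 row (ENSDARG00000011583) it was 0.64 ± 0.237 (adjusted p = 0.187). PER2, the period gene most closely tied to light, had 108.8, 96.47, 177.6 and 274.4 CPM in cox7a1-/- replicates 1 to 4, against 44.19, 48.34, 47.25 and 167.6 CPM in wildtype replicates 1 to 4. Wildtype replicate 4 lay inside the cox7a1-/- range while the other wildtype pools lay below it, and the log2 fold change was 1.097 ± 0.458 (adjusted p = 0.235). Of 7 tested genes described as clock outputs in the mammalian heart, none was called by edgeR, DESeq2 or limma-voom and none had an unadjusted p under 0.05. The smallest p-values there were those of kcnh6a, a cardiac potassium channel, with 0.74 ± 0.345 (adjusted p = 0.291), KLF15 with 0.31 ± 0.337 (0.682) and PDK4 with -0.10 ± 0.183 (0.817).

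**Figure D4:**
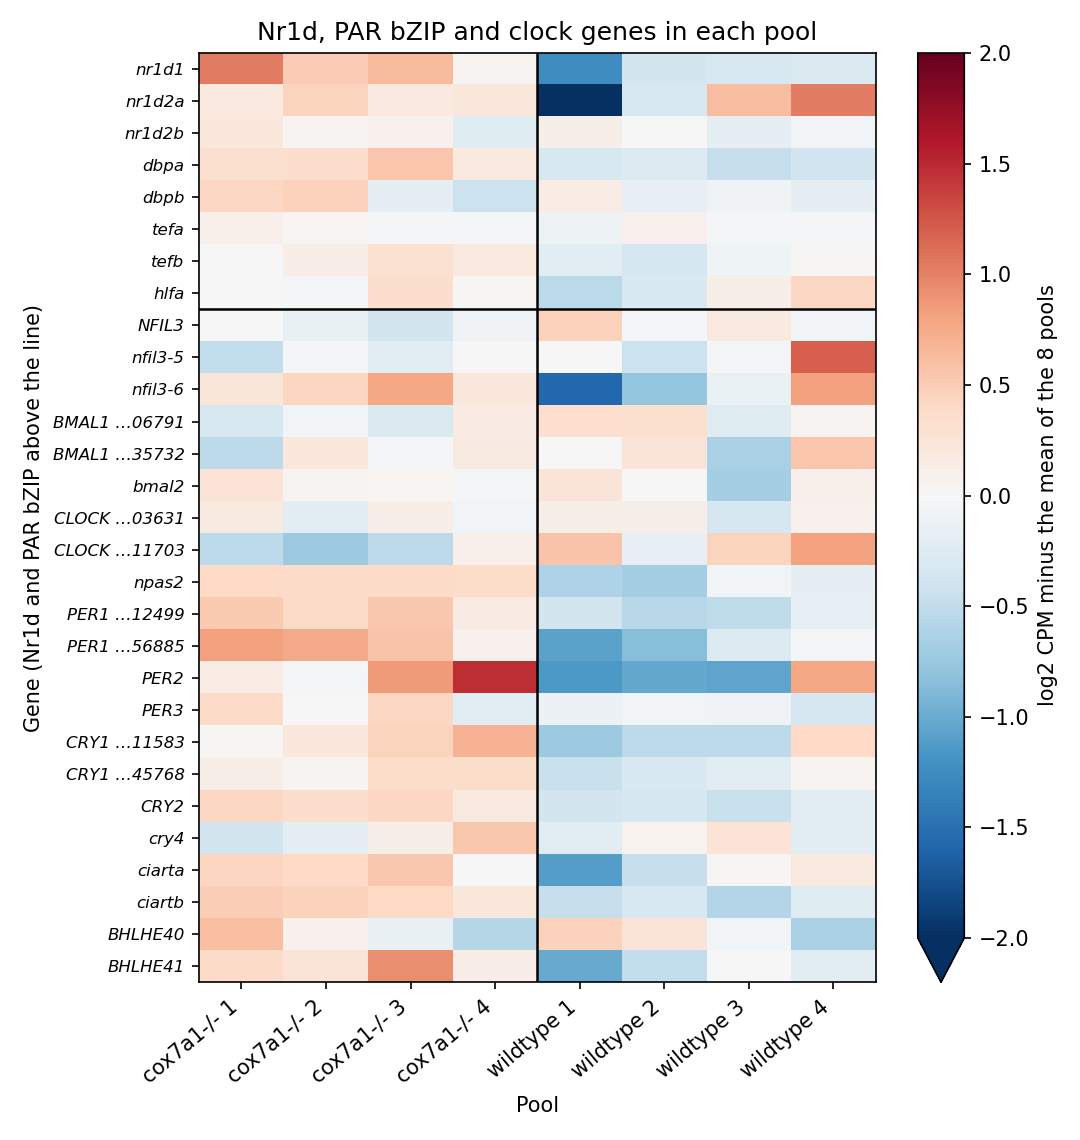
Log2 CPM of each gene in each pool minus its mean over the 8 pools, with cox7a1-/- replicates 1 to 4 left of wildtype replicates 1 to 4 and the Nr1d and PAR bZIP genes above the line (the nr1d4 pair is left out for low counts). Red is above and blue below the mean. Wildtype replicate 1 is blue for nr1d1, nr1d2a and nfil3-6, and the rows of dbpa, CRY2 and ciartb are red on the left and blue on the right.

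Across the 8 pools the 10 genes did not follow a single pattern, as correlations of log2 CPM show. These are descriptions over 8 pools that share the genotype contrast, and the pairs given were picked after their values were seen. The clock repressors closest to nr1d1 were PER1 (ENSDARG00000056885), with r = 0.939, and ciarta, a paralog of ciartb, with 0.896, and after each genotype's mean was subtracted r was 0.797 and 0.833. For dbpa the closest were CRY2 with r = 0.971 and ciartb with 0.956, and these values were 0.585 and 0.442 after subtraction of the genotype means. The levels of nr1d2a were correlated with those of hlfa (r = 0.843 over the pools, 0.83 after subtraction) and, like those of nr1d1, with ciarta (0.844 and 0.916). Between nr1d1 and nr1d2a r was 0.606, and 0.706 after subtraction. Between nr1d2a and dbpa it was 0.185, and -0.291 after subtraction. Because nr1d2a varied mainly among wildtype pools (SD of log2 CPM 1.52, against 0.124 in cox7a1-/- pools), its r values rest mainly on the wildtype pools. Among cox7a1-/- pools nr1d2a was highest in replicate 2 (268 CPM), where hlfa was lowest (54.62 CPM). It was lowest in replicate 3 (223.7 CPM), where hlfa was highest (71.9 CPM).

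Likeness was ranked among 11794 genes whose mean log2 CPM reached 1 or more, with rows named only by a clone or a gene ID left out. Among these, the genes outside the families whose levels were most like nr1d1 over the 8 pools were ZC3H18 (r = 0.955), DDHD1 (0.954), CDK8 (0.954) and SLMAP (0.942). After each genotype's mean was subtracted, r was 0.852, 0.856, 0.856 and 0.808 in that order. Most like dbpa were DENND5A (r = 0.99), ttll4 (0.988), ipo4 (0.987), an importin, and CLCN2 (0.986), a chloride channel, with r of 0.928, 0.921, 0.818 and 0.863 after subtraction. Since nr1d1 and dbpa separate the genotypes, genes chosen for likeness over all 8 pools were bound to differ between them too, and no test of that difference is given. The r after subtraction used the same values that chose these genes, so its height partly follows from that choice.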

How the data were processed

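RNA was sequenced from 8 pools of zebrafish ventricles, 4 per genotype. Per the file headers, the authors deposited unnormalised counts of reads in the exons of each gene, made by featureCounts 2.0.3 at strand setting 2 on the Ensembl 109 annotation of GRCz11. Per the labels' protocols the kit was directional, and per the submitters' processing notes STAR was also used. The deposited exon length gave RPKM and the length check. Columns were matched to samples by library number, and 0 columns of per-sample values were left unused. Replicate numbers are those of the sample titles. The command in the header has no option to count reads mapped to several places, which can lower the levels of close paralogs.

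Symbols came from a table that names 29201 of the 32520 rows, and are printed as it gives them. A listed symbol without a match was matched without its paralog suffix, and could then take several rows. The 10 genes and the lists around them were chosen with earlier results of these data known. From each list the up to 3 tested genes with the smallest p are named, except 1 corepressor gene that is not reported here, together with, for nr1d1 and dbpa, the 4 genes with the highest correlation; HLF, ciarta, PER1 (ENSDARG00000056885) and the genes most like nr1d2a were named after their values were seen.

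Genes were filtered with filterByExpr (minimum count 10), which left 17949 genes, and scaled with TMM factors. Genotypes were compared with edgeR 4.0.16 (R 4.3.3, quasi-likelihood test, genotype as the only term, Benjamini-Hochberg adjustment over all tested genes, threshold 0.05). The SE is the log2 fold change divided by the square root of F, and log2 CPM used a prior count of 2. Log2 fold changes are cox7a1-/- over wildtype. Alternatives were other scalings, filters, DESeq2 1.42.0, limma-voom (limma 3.58.1), a replicate block, a length trend removed (lowess span 0.3), other thresholds and each pool left out. The edgeR step was tested on simulated counts. The unit of replication was the pool. The spread behind each p-value is that among pools within the genotypes. It enters as a single estimate per gene, shared by both genotypes and moderated across genes, also where their spreads differ. No sequences of these genes were used here.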

Additional observations from a re-analysis of the deposited data

Results flagged for a closer look

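In 112 sets of 4 pools, those in each genotype of the tested genes that the naming rules chose or that were named after their values were seen, 12 held a pool far from the other three, judged by the gap to its nearest neighbour as a share of the whole range. Chance gives about 1 in 20 among independent sets, and these sets are not independent, since they share the same 8 pools and several genes were picked for their likeness or their spread.

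Among the clock output genes, the share was 0.894 for nr1d1 in wildtype pools, where replicate 1 had 25.85 CPM and the others 47.34 to 49.88 CPM. It was 0.898 for nr1d2a in cox7a1-/- pools, where replicate 2 had 268 CPM and the others 223.7 to 228.2 CPM. For nr1d4a in cox7a1-/- pools it was 0.870, with 3 reads in replicate 1. For hlfa in cox7a1-/- pools it was 0.876, with 71.9 CPM in replicate 3 and 54.62 to 56.77 CPM in the others.

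Among other clock genes wildtype replicate 4 stood highest, with shares of 0.966 for PER2 (167.6 CPM, against 44.19 to 48.34 CPM in the other wildtype pools), 0.871 for CRY1 (ENSDARG00000011583) and 0.835 for nfil3-5 (31.5 CPM, against 10.21 to 13.73 CPM). For the genes most like nr1d1 and dbpa, the shares were 0.876 for CDK8 in cox7a1-/- pools (replicate 4 lowest), 0.925 for ipo4 in cox7a1-/- pools (replicate 3 highest) and 0.839 for CLCN2 in wildtype pools (replicate 2 highest). Among the genes picked for their wide wildtype spread, wildtype replicate 4 stood highest with 0.923 for NR4A3 and 0.835 for ATF3.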

How the results depend on the processing

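Of the 10 clock output genes, 2 were called higher. This count was 1 with library totals alone, 1 with a replicate block, 0 at an adjusted p of 0.01 and 0 to 2 with each pool left out, with 0 without cox7a1-/- replicate 3 and without wildtype replicate 3; no gene was called lower in any of these. The 5 pathway genes called higher became 2 with library totals alone, 9 with DESeq2, 3 with the block, 0 at 0.01 and 0 to 6 with a pool left out, with 0 without wildtype replicate 3. The 0 called lower became 1 without a filter, 2 with DESeq2, 1 with the block and 1 at an adjusted p of 0.1. Over all genes, the 205 higher became 60 with totals alone, 619 with DESeq2, 126 with the block, 14 at 0.01, 502 at 0.1 and 29 to 273 with a pool left out. The 158 lower became 97, 488, 84, 16, 390 and 37 to 200 under the same settings. The gene nr1d1 kept its direction (log2 fold change 0.91 to 1.25) but had adjusted p-values of 0.0581 with totals alone and 0.0828 with the block. Both calls held with the length trend removed, at 0.0371 for nr1d1 and 0.0121 for dbpa. Deviations of same-numbered pools from their genotype means correlated at 0.246, -0.071, 0.0365 and -0.066 for replicates 1 to 4. Pools of unlike number were not compared, so whether the numbers pair the samples was not tested.

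Among the 10 genes, signs turned for 6, none of them called, when a pool was left out. Their log2 fold changes then ranged from -0.28 (without wildtype replicate 1) to 0.50 for nr1d2a, which was also negative at -0.05 without wildtype replicate 2. The ranges were -0.0043 to 0.15 for nr1d2b, -0.50 to 0.14 for nr1d4a (0.07 without wildtype replicate 4), -0.32 to 0.45 for nr1d4b (-0.27 without cox7a1-/- replicate 1 and -0.086 without wildtype replicate 2), -0.0029 to 0.075 for tefa (-0.0015 without wildtype replicate 1) and -0.016 to 0.30 for hlfa. With totals alone nr1d4b had -0.0068. For nr1d2a the value was 0.52 with limma-voom and 0.48 with the block, without a call in either. The cause was not tested. With a CPM of at least 1 required, nr1d4a and nr1d4b had no value. The nr1d4 pair had 3 to 48 reads per pool.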

Other observations

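The genes whose levels were most like nr1d2a over the 8 pools, named after the values were seen, were IER5 (r = 0.974), DUSP1 (0.971), PIM1 (0.968) and KLF9 (0.963), among the same 11794 genes, without rows named only by a clone or a gene ID. IER5 and DUSP1 are immediate early genes, and KLF9 and DUSP1 are known glucocorticoid targets in mammals. KLF9 had 49.01, 69.67, 97.23 and 91.62 CPM in cox7a1-/- replicates 1 to 4, against 3.131, 24.4, 65.21 and 128.9 CPM in wildtype replicates 1 to 4. None of these 4 genes passed edgeR's test between the genotypes (adjusted p from 0.673 to 0.801). Because nr1d2a varied mainly among wildtype pools, the r values above rest mainly on those pools.

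Only 6 of the 845 genes of like level spread more widely than nr1d2a among wildtype pools: NR4A3, ATF3, zgc:122979, MIDN, IRS2 and MYLK4, named after the values were seen. Among wildtype pools all 6 were lowest in replicate 1 and highest in replicate 4. Among cox7a1-/- pools all 6 were lowest in replicate 1 as well. NR4A3, an immediate early nuclear receptor, had 42.12, 188.6, 272.5 and 306.8 CPM in cox7a1-/- replicates 1 to 4, against 7.011, 19.72, 46.65 and 523.7 CPM in wildtype replicates 1 to 4. ATF3, a stress-induced transcription factor, had 49.12, 189.5, 365.5 and 133.7 CPM in cox7a1-/- pools, against 5.99, 19.33, 58.84 and 326.3 CPM in wildtype pools.

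Of 36 tested genes of the clock and D-box lists, the 10 above included, 20 were highest among wildtype pools in replicate 4, which was highest for 27.6% of all tested genes. The lowest wildtype pool was replicate 1 for 13 of the 36 genes, replicate 3 for 12, replicate 2 for 7 and replicate 4 for 4, against 23.7%, 26.4%, 22% and 27.9% of all tested genes.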
